A study of Mus musculus with 5 samples.

Results

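Spleen cells without Fos that had been given a virus with the gene of green fluorescent protein (GFP) were compared with spleen cells without Fos that had received no virus. Genes were taken from the probe sets that are not controls and carry 1 gene symbol, which gave 8251 genes, each read by its brightest probe set over the 5 arrays of the series. Values are hybridisation intensities on a linear scale. An intensity under 20 was set to this floor before a ratio was taken, and a gene was compared where its brighter array reached 40, which left 5105 genes. A gene is called higher or lower where its GFP value differed 2-fold or more from its value without virus. There was 1 array on each side, so no fold has an error, no test was possible, and "higher" and "lower" describe this pair of arrays. "At least" marks folds whose dimmer value was at or under the floor, since these are lower bounds.

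Each array held total RNA from a mouse co-culture in which haematopoietic cells had been kept on ST2-T cells for 6 days with dexamethasone and 1,25-dihydroxyvitaminD3. The dish was collected whole, so that stromal RNA and haematopoietic RNA were measured together. In such mixed RNA, fewer cells of a type and less RNA per cell cannot be told apart. The 5 groups were Fos-/- spleen without virus, Fos-/- spleen with GFP virus, Fos-/- spleen with deltaNFAT virus, Fos+/+ spleen without virus and Fos+/+ bone marrow without virus. The labels give no virus type, dose, infected share, age, sex or number of animals, and they do not describe the deltaNFAT construct. GFP is not among the gene symbols of the array, so infection itself was not read.

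Osteoclasts are bone-resorbing cells that arise by fusion of monocyte and macrophage precursors, and stromal cells given vitamin D and a glucocorticoid supply the signals for it. Fos is part of the transcription factor AP-1, and cells without it do not complete this step and are known to become macrophages instead. A virus carrying GFP alone is the usual control for infection, since it takes cells through the same handling without the gene of interest. Cells that sense viral nucleic acid make type I interferon, which switches on genes through a promoter element called the interferon-stimulated response element (ISRE).

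Of the 5105 genes, 527 were higher with GFP virus (10.3%) and 358 were lower (7.01%). A difference of 4-fold or more was seen for 120 genes upward (2.35%) and for 35 downward (0.686%). The median log2 ratio over all 5105 genes was -0.11, and the central 50% of the genes lay between -0.43 and 0.34. The higher genes had a median log2 ratio of 1.43 and a median intensity in the GFP array of 114, and 168 of them were at the floor without virus. The lower genes had a median of -1.28 and a median intensity without virus of 90.6, and 116 were at the floor with GFP. Called genes were thus dimmer than the 4220 genes in neither class, whose brighter array had a median intensity of 167. At a floor of 60 the counts were 251 higher and 115 lower.

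**Figure D1:**
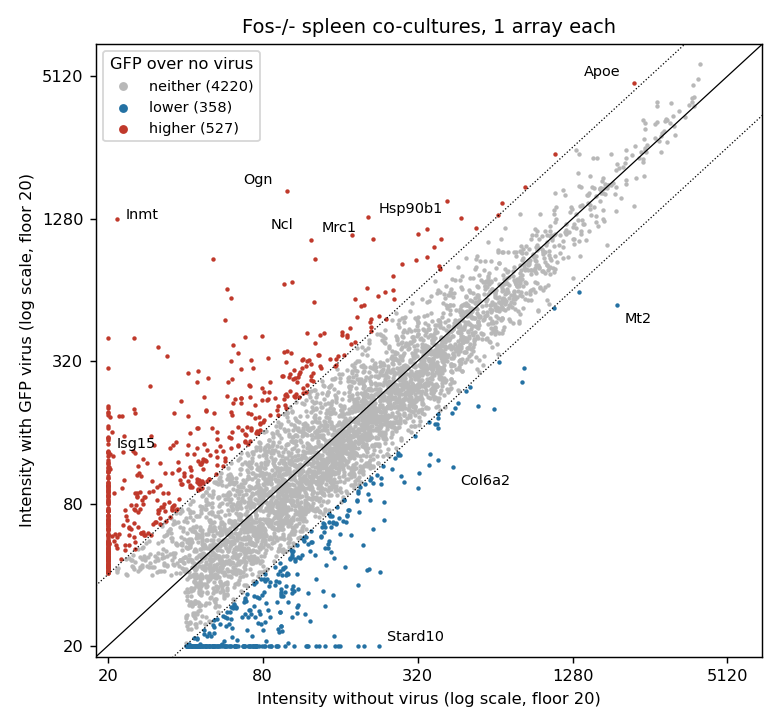
Intensity of each of 5105 genes in the Fos-/- spleen array without virus (x axis) and with GFP virus (y axis), both on log scales with values under 20 drawn at 20; dotted lines mark a 2-fold difference. The 527 higher genes (red) and 358 lower genes (blue) lie mostly at low intensity, with Inmt, Ogn and Hsp90b1 among bright exceptions above the lines and Mt2 below.

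The cell types in the dishes were read from marker lists. The osteoclast list was low on both sides: its 14 measured genes summed to an intensity of 3241 without virus and 2789 with GFP, against 17270 in Fos+/+ spleen and 12780 in Fos+/+ bone marrow. The sums leave out 4 genes under the floor in both arrays compared. Among these Car2 read 971 in Fos+/+ spleen and 719 in Fos+/+ bone marrow, and Calcr and Slc9b2 were also bright in both, so the Fos+/+ sums are understated. Nfatc1, the transcription factor that drives osteoclast formation, read 23.5 without virus, 23.4 with GFP, 82.7 with deltaNFAT, 751 in Fos+/+ spleen and 325 in Fos+/+ bone marrow, and both Fos-/- arrays of the comparison lay close to the floor. Macrophage and stromal genes were bright in both. Csf1r, the receptor for the macrophage growth factor M-CSF, read 1469 without virus and 1486 with GFP, and the collagen gene Col1a1 read 3778 and 4186. The T cell genes Cd3e, Cd3d and Cd3g were under the floor in every array, while Cd4 of the same list read 167 without virus and 134 with GFP. Fos read 426 without virus, 607 with GFP, 581 with deltaNFAT, 849 in Fos+/+ spleen and 614 in Fos+/+ bone marrow. The stromal cells of each dish carry Fos, and where its probes lie relative to the deletion was not checked here. The genotype is therefore not verified by these values.

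Deposited values were alike in scale: leaving out the lowest and highest 2% of values, each array had a mean of 100, and 58.2 to 62.1% of the probe sets lay above the floor. For Actb, the 3-prime over the 5-prime control probe set gave an intensity ratio of 1.02 without virus, 1.31 with GFP and 1.15 to 1.21 in the other arrays, and for Gapdh the ratios lay between 0.77 and 0.85. Across 6 spike-in control probe sets the GFP value was 1.15 to 1.90 times the value without virus, with a median of 1.34. Whether transcript integrity or labelling had a part in the differences was not tested.

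Genes of the interferon response made the list with the largest share of higher genes among the lists with 10 or more bright members. Of 41 such genes on the array 35 were bright enough, and 19 of these were higher with GFP (54.3%, against 10.3% of all bright genes) and 0 were lower. The median log2 ratio of the list was 1.07, against -0.09 over all genes above the floor. The summed intensity of its 37 measured genes was 3460 without virus, 5909 with GFP, 7376 with deltaNFAT, 4078 in Fos+/+ spleen and 3839 in Fos+/+ bone marrow. The levels were low: 13 of the 19 higher genes were at the floor without virus, and 9 reached less than 80 with GFP. At a floor of 60 the count of higher genes in the list was 6 in place of 19, and Isg15 was still one of them while Ifih1, Trim30a, Irgm1 and Iigp1 were not.

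The promoters of these genes were searched for the ISRE letters, GAAA and GAAA with any 2 bases between them, on either strand, in windows of RefSeq sequence (GRCm38.p6) from 250 bases before to 50 bases after each start site. Of the 15 higher interferon genes with a window, 9 held a match (60%), as did 3 of the 14 that were not called (21.4%), 156 of 4105 bright genes (3.8%) and 1131 of all 32851 windows (3.44%). The list was made of known interferon response genes, so a high share of matches could be foreseen whatever these arrays read. Matches that lay wholly before the start site were present in 7 of the 9, and these are shown. Whether the element had a part in the differences was not tested. Each stretch is written in the direction of its gene. Capitals mark the match, which reads TTTC, 2 bases and TTTC where it lies on the opposite strand, and overlapping matches are joined.
Irgm2, chr11:58214888-58214947, plus strand: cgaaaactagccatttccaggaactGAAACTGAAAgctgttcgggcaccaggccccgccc
Isg15, chr4:156200850-156200921, minus strand: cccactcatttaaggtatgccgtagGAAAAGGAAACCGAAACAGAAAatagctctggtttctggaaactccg
Trim30a, chr7:104465195-104465254, minus strand: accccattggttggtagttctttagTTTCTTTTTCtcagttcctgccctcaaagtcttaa
Irgm1, chr11:48871421-48871475, minus strand: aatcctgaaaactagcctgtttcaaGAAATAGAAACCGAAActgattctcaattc
Ifit1, chr19:34640760-34640838, plus strand: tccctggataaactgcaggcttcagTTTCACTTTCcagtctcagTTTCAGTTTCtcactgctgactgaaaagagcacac
Gbp3, chr3:142559974-142560039, plus strand: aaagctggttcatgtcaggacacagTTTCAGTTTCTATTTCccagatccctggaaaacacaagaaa
Rsad2, chr12:26456538-26456597, minus strand: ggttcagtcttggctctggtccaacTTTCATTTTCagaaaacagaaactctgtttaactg
Isg15 held 3 overlapping matches, the first starting 78 bases before the start site and the last ending 57 bases before it. Irgm1, Ifit1 and Gbp3 held 2 each. Other elements were searched in the same windows. The AP-1 letters, TGA and TCA with any base between them, were found in 3 of the 15 higher interferon genes (20%). They were found in 1 of the 14 not called (7.14%) and in 292 of the 4105 bright genes (7.11%). The letters for CRE, E-box, amino-acid response and CArG box each matched in 0 or 1 of the 15. A match is a run of letters and does not show that a factor was bound there.

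Isg15, a ubiquitin-like protein that is joined to other proteins during viral infection, read -62.8 without virus, 143 with GFP, 367 with deltaNFAT, -2.1 in Fos+/+ spleen and -48.4 in Fos+/+ bone marrow, where negative values are under the floor. It was above the floor in both virus arrays and in no other, and its fold over no virus was at least 7.13. Ifih1, which encodes the cytoplasmic RNA sensor MDA5, read -6.1 without virus, 111 with GFP, 145 with deltaNFAT, -6.3 in Fos+/+ spleen and 52.2 in bone marrow, a fold of at least 5.53. Its bone marrow value also lay above the floor, at less than 50% of the GFP value. Trim30a, a tripartite motif protein, read 20.2 without virus and 114 with GFP (5.66-fold), 148 with deltaNFAT, 10.1 in Fos+/+ spleen and 36.5 in bone marrow.

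Of the immunity-related GTPases, a family that acts against intracellular pathogens, those higher with GFP included Irgm2, Irgm1 and Iigp1. Igtp, at 43.9 without virus and 64.5 with GFP, was not called. Irgm2 read 79.7 without virus, 219 with GFP, 219 with deltaNFAT, 72.5 in Fos+/+ spleen and 74.0 in bone marrow. Both virus arrays stood apart from the closely grouped arrays without virus. Irgm1 read 46.8, 112, 157, 40.9 and 44.6 in the same order and was 2.39-fold higher with GFP. Iigp1 read -12.4 without virus, 109 with GFP, 199 with deltaNFAT, -8.3 in Fos+/+ spleen and 19.5 in bone marrow, so that the virus arrays alone were above the floor.

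Irf9, the DNA-binding subunit of the interferon-activated complex, read 98.8 without virus, 232 with GFP, 243 with deltaNFAT, 86.6 in Fos+/+ spleen and 23.2 in bone marrow. It was 2.35-fold higher with GFP, and bone marrow was the lowest array. Samhd1, an enzyme that breaks down deoxynucleoside triphosphates and restricts retroviruses, was the brightest higher gene of the list, at 386 without virus, 808 with GFP, 642 with deltaNFAT, 311 in Fos+/+ spleen and 439 in bone marrow. Its virus arrays were the highest, and its fold over no virus was 2.09. With its probe sets averaged it was not called.

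Ifi204 and Ifi202b, DNA-binding proteins of the PYHIN family, were also higher with GFP. Ifi204 read 31.3 without virus, 367 with GFP, 597 with deltaNFAT, 60.1 in Fos+/+ spleen and 210 in bone marrow, an 11.7-fold difference from a probe set whose suffix marks probes shared with related genes. A second probe set of Ifi204 read 153 without virus and 93.0 with GFP and was not called. Ifi202b read 3.4 without virus, 203 with GFP, 319 with deltaNFAT, 19.9 in Fos+/+ spleen and 164 in bone marrow, a fold of at least 10.2. For both of these genes bone marrow lay within 2-fold of GFP, unlike Isg15 or Irgm2.

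Dimmer members were chosen for mention after their values were seen. Ifit1, which binds viral RNA, read -5.4 without virus, 65.4 with GFP and 189 with deltaNFAT, and was under the floor in both Fos+/+ arrays. Mx1, a GTPase that blocks influenza virus, read 12.6, 50.9, 66.1, 1.9 and 13.3 in the order no virus, GFP, deltaNFAT, Fos+/+ spleen and bone marrow. Usp18, which removes ISG15 from proteins, read 7.5, 54.3, 89.3, -3.1 and 10.4 in that order. Like Isg15, these were above the floor with virus alone.

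Interferon genes that were not called included bright ones. Ifi27 read 495 without virus and 605 with GFP, Irf1 read 228 and 255, Psme1 read 212 and 241, and Pml read 292 and 235. Irf7, a transcription factor that amplifies interferon production, read 69.3 without virus, 131 with GFP, 189 with deltaNFAT, 56.0 in Fos+/+ spleen and 55.7 in bone marrow, a log2 ratio of 0.92 that stayed short of the call.

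**Figure D2:**
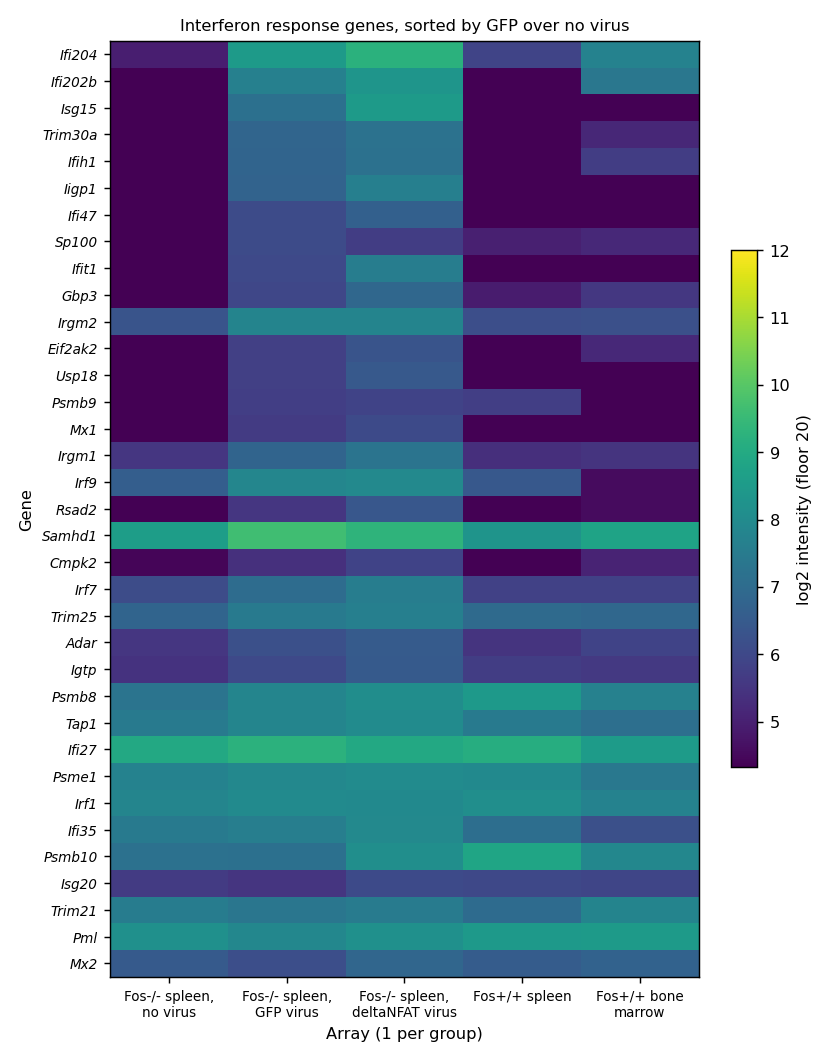
Log2 intensity (colour, floor 20) of the 35 bright interferon response genes in the 5 arrays, 1 array a column, sorted by GFP over no virus. The upper rows are dark without virus and in Fos+/+ spleen and lighter in both virus columns, with 13 of the 19 higher genes at the floor without virus and 11 at the floor in Fos+/+ spleen.

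Among the 19 higher interferon genes, the deltaNFAT value was at or above the GFP value in 17. The GFP value was 2-fold or more above Fos+/+ bone marrow in 12, and 7 were at the floor in bone marrow. For 11 genes both virus arrays lay 2-fold or more above all 3 arrays without virus. Of all 527 higher genes, 88 had bone marrow more than 2-fold below GFP, and 38 (7.21%) had both virus arrays above the 3 others. The higher genes were picked by GFP over no virus, so the choice itself favours a high GFP value beside the other arrays. A ratio that shares no array with GFP over no virus is deltaNFAT over Fos+/+ spleen, which also differs in genotype. In it 740 of 5203 genes were higher (14.2%) and 479 lower (9.21%), and of 37 bright interferon genes 22 were higher and 0 lower. In bone marrow over spleen of Fos+/+ cells, where neither array had virus, 692 of 5281 genes were higher (13.1%) and 380 lower (7.2%), and of 24 bright interferon genes 3 were higher and 2 lower.

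The higher genes were then read in Fos+/+ bone marrow. For 432 of the 527 higher genes (82.0%), this array, which had no virus, lay within 2-fold of the GFP value, and for 175 it was at or above it. It was more than 2-fold below GFP for 88. The same share was 91.1% for genes in neither class and 87.8% for all bright genes, so the share among higher genes lay below that of genes at large. Of the 358 lower genes 206 had bone marrow within 2-fold of GFP (57.5%), while for 143 bone marrow was more than 2-fold above GFP.

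In terms of all 5 arrays, 225 of the 527 higher genes (42.7%) had both virus arrays and bone marrow 2-fold or more above both spleen arrays without virus, a pattern added after the values were seen. Both virus arrays stood 2-fold or more above all 3 arrays without virus for 38 (7.21%). The array without virus alone was low for 29 (5.5%), the GFP array alone was high for 11 (2.09%), and 234 fell in no such pattern. Of the 358 lower genes, GFP alone was low for 34 (9.5%), the array without virus alone was high for 33 (9.22%), both virus arrays were low for 33 (9.22%) and both virus arrays with bone marrow for 26 (7.26%), and 233 (65.1%) fell in no such pattern.

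The overlap with bone marrow was also taken over a ratio sharing no array with GFP over no virus. Among 4886 genes bright enough in both ratios, 321 of the 460 genes higher with GFP were also higher in bone marrow than in spleen of Fos+/+ cells. That is 69.8% of the first list and 55.6% of the 577 genes of the second, beside 11.8% of the 4886 genes, and 14 genes were lower. The 460 genes had a median log2 ratio of bone marrow over Fos+/+ spleen of 1.38, against 0.05 for the 4886 genes. Of 314 lower genes 77 were also lower there, 24.5% of the first list and 25.2% of the 305 of the second, beside 6.24% of all, and 29 were higher. In deltaNFAT over Fos+/+ spleen, 373 of 489 higher genes were higher (76.3%, and 55.3% of the 674 of that list, beside 13.7% of all) and 104 of 300 lower genes were lower (34.7%, and 27.2% of 382, beside 7.76%).

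**Figure D3:**
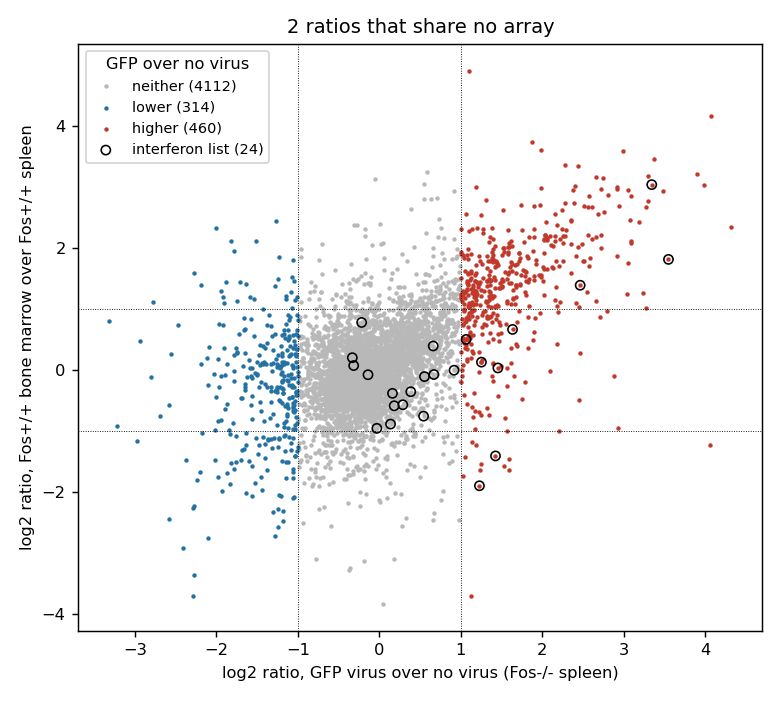
Log2 ratio, in Fos-/- spleen, of GFP virus over no virus (x axis) against the log2 ratio of bone marrow over spleen in Fos+/+ cells (y axis) for 4886 genes bright enough in both; dotted lines mark 2-fold and circles the interferon list. Of the 460 red genes 321 lie above the upper line, while of the 24 circled genes 3 do and 2 lie below the lower line.

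The largest fold belonged to Inmt, an enzyme that methylates indolamines such as tryptamine. It read 21.7 without virus, 1277 with GFP, 730 with deltaNFAT, 10.8 in Fos+/+ spleen and 5.7 in Fos+/+ bone marrow. It was bright in both virus arrays and near or under the floor in the 3 arrays without virus, and the fold of GFP over no virus was 58.9. Alas1, which makes the first intermediate of haem, had the same pattern at a higher base: 321 without virus, 1104 with GFP, 962 with deltaNFAT, 404 in Fos+/+ spleen and 353 in bone marrow, a 3.44-fold difference. Rnase4, a secreted ribonuclease, read 174 without virus, 443 with GFP, 500 with deltaNFAT, 27.9 in Fos+/+ spleen and 81.9 in bone marrow.

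Immunoglobulin probe sets differed among themselves. Igkv6-23, a kappa light chain variable segment, read 51.4 without virus, 860 with GFP, 447 with deltaNFAT, 47.0 in Fos+/+ spleen and 10.5 in bone marrow, on a probe set shared with related segments. Ighm, the heavy chain of immunoglobulin M, read 278, 826, 603, 287 and 292 in the order no virus, GFP, deltaNFAT, Fos+/+ spleen and bone marrow. Its 3 other bright probe sets did not differ by 2-fold, and the brightest unsuffixed one had a log2 ratio of -0.37, so the direction of Ighm depends on the probe set. The B cell and plasma cell list had 2 of 10 bright members higher (20%), Ighm and Fcer2a, and 3 lower (30%), Cd79b, Cd79a and Vpreb1. Over all bright genes the shares were 10.3% and 7.01%. The list's median log2 ratio was -0.33. Its summed intensity was 1140 without virus and 1504 with GFP. These sums include the Ighm probe set that read 278 and 826, which its other bright probe sets did not follow. Fcer2a, an IgE receptor, read 41.6 without virus, 114 with GFP and 33.8 with deltaNFAT. Cd79b, a subunit of the B cell receptor, was lower with GFP, at 108 without virus, 27.5 with GFP and 44.6 with deltaNFAT. Pax5, which specifies B cells, read 256 and 224.

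Osteoglycin, Ogn, is a small proteoglycan of connective tissue. It read 99.1 without virus, 1667 with GFP, 1572 with deltaNFAT, 62.1 in Fos+/+ spleen and 1111 in Fos+/+ bone marrow, a 16.8-fold difference between the arrays compared. A second probe set read 34.5, 1619, 1397, 13.3 and 870 in the same order. Both probe sets were bright with either virus and in bone marrow and dim in both spleen cultures without virus. Angpt1, a ligand of the endothelial receptor TIE2, read 25.4 without virus, 402 with GFP, 262 with deltaNFAT, 25.8 in Fos+/+ spleen and 209 in bone marrow, a 15.8-fold difference. Npr3, the clearance receptor of natriuretic peptides, read 57.2, 475, 373, 24.8 and 192 in that order and was 8.30-fold higher, and 2 other probe sets of it were higher too.

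Several of the 15 largest folds belonged to genes known to be expressed widely, a grouping made after the values were seen. Hsp90aa1 and Hsp90b1 are chaperones of the cytosol and of the endoplasmic reticulum. Hsp90aa1 read 60.1 without virus, 592 with GFP, 679 with deltaNFAT, 88.9 in Fos+/+ spleen and 798 in bone marrow, and Hsp90b1 read 205, 1299, 1066, 229 and 1033. The folds over no virus were 9.85 and 6.35, and the 2 spleen arrays without virus were the low ones for both. Ncl, nucleolin, which works in ribosome assembly, read 123 without virus, 1038 with GFP, 971 with deltaNFAT, 227 in Fos+/+ spleen and 1245 in bone marrow.

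The same arrays were low for other genes with large folds. Top1, which encodes DNA topoisomerase I, read 18 without virus, 401 with GFP, 334 with deltaNFAT, 58.6 in Fos+/+ spleen and 297 in bone marrow, at least 20.03-fold higher with GFP. Septin7, a filament-forming GTPase, read 57.9, 647, 636, 84.0 and 637 in that order. Eif3a, a subunit of a translation initiation factor, read 34.1, 336, 348, 41.0 and 278. Dek, a chromatin protein, read 16.2, 207, 217, 18.5 and 220. For each of them bone marrow without virus lay within 2-fold of GFP.

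As a check within one gene, Actb was read by several probe sets. Its probe set outside the controls read 49.0 without virus, 271 with GFP, 248 with deltaNFAT, 118 in Fos+/+ spleen and 142 in bone marrow, a 5.52-fold difference. The suffix of this probe set marks probes shared with related genes. Its 3-prime control probe set read 3906 without virus and 5456 with GFP, and the 5-prime one 3845 and 4158. The transferrin receptor Tfrc read 562 without virus and 848 with GFP on its brightest probe set, while its 3-prime control probe set read 49.9 and 188. Another Tfrc probe set outside the controls read 4.4 and 82.8 and was higher. Probe sets of these genes thus differed in the size of the ratio. Of 70 higher genes with another bright probe set, 43 were higher on at least 1 other (61.4%) and 4 were lower on one, and of 13 lower genes 4 were lower on another (30.8%) and 3 higher.

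**Figure D4:**
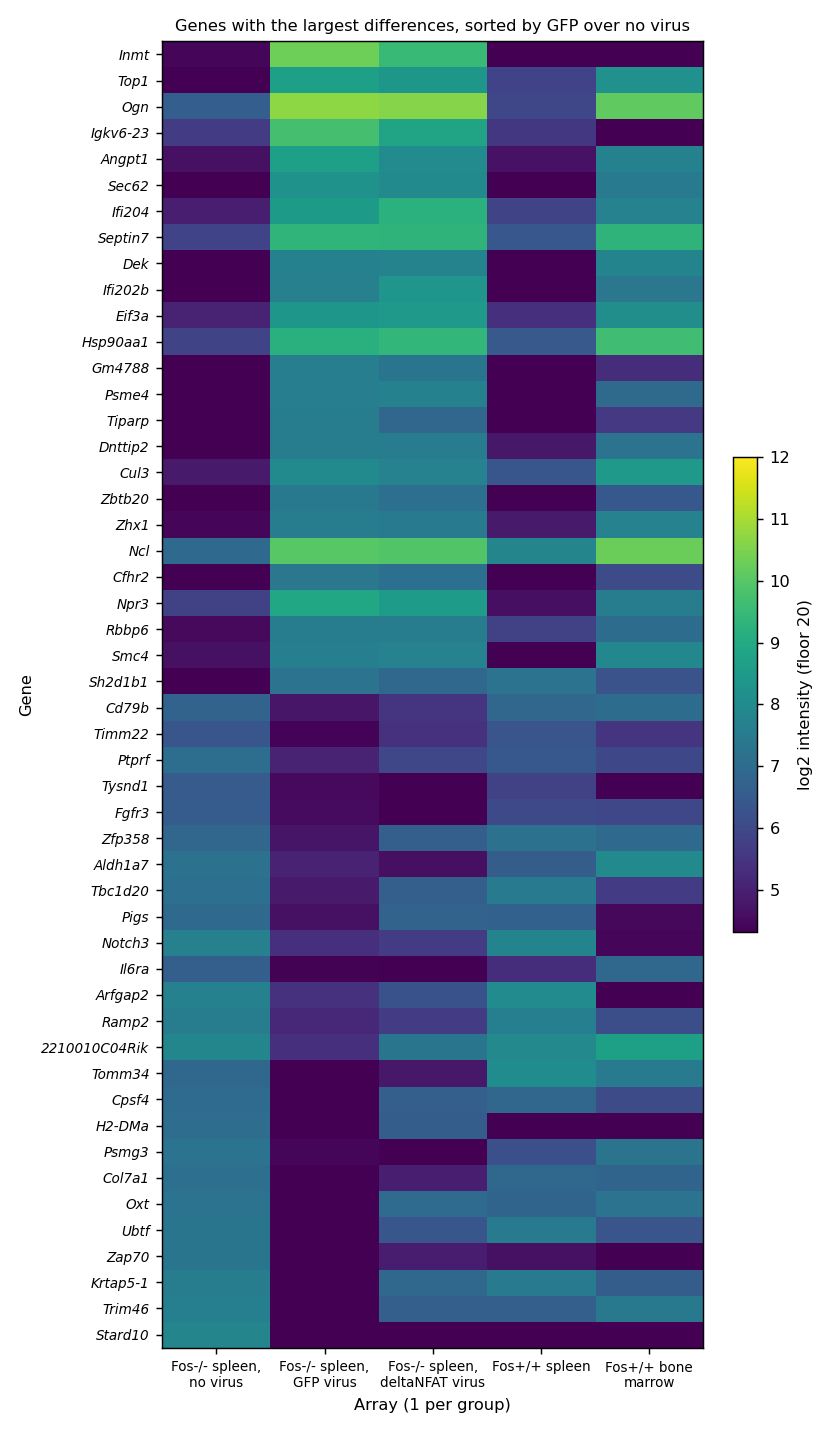
Log2 intensity (colour, floor 20) in the 5 arrays of the genes with the largest folds above the floor and the brightest genes with the dimmer array at the floor, in each direction, sorted by GFP over no virus. In the upper 25 rows the column without virus is dark, the deltaNFAT column resembles the GFP column, and bone marrow is light for Ogn, Septin7 and Ncl and dark for Inmt and Igkv6-23.

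Genes of neutrophil granules had 7 of 15 bright members higher with GFP (46.7%) and 1 lower (6.67%), beside 10.3% and 7.01% of all bright genes. Their median log2 ratio was 0.92. The summed intensity of the 17 measured genes was 5902 without virus, 11550 with GFP, 9710 with deltaNFAT, 3958 in Fos+/+ spleen and 15280 in Fos+/+ bone marrow. S100a9, a subunit of calprotectin, read 416 without virus, 1524 with GFP, 1078 with deltaNFAT, 134 in Fos+/+ spleen and 1791 in bone marrow, a 3.66-fold difference. Lcn2, which binds bacterial iron carriers, read 257, 639, 402, 129 and 885 in that order, but a second probe set of it read 71.0 without virus and 58.0 with GFP, and it was not called with both averaged. Ngp, a granule protein, read 540, 1165, 701, 61.5 and 1835. Bone marrow was the highest array for all 3 and Fos+/+ spleen the lowest.

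Chil3, a chitinase-like protein of myeloid cells, read 1095 without virus, 2409 with GFP, 2548 with deltaNFAT, 567 in Fos+/+ spleen and 2816 in bone marrow. S100a8, the partner of S100a9, read 1319 without virus and 2501 with GFP, a log2 ratio of 0.92 that was not called. Mpo, myeloperoxidase, and Padi4 were higher at GFP intensities of 79.5 and 46.6, and Elane, neutrophil elastase, read 115 and 116. Anxa1, another higher member, read 654 without virus and 1330 with GFP. Its other bright probe sets had log2 ratios of 0.89 and 0.59, and like Lcn2 it was not called with its probe sets averaged. Gsr, glutathione reductase, was the lower member, at 383 and 167. Ly6g, the surface marker of neutrophils, read 34.4 without virus and 24.4 with GFP, and Cxcr2 was under the floor in every array. When Fos+/+ bone marrow was set against Fos+/+ spleen, 13 of 16 bright members were higher and 0 lower, beside 13.1% and 7.2% of all genes bright there. The part of a different content of granulocytes in the other differences was not tested.

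Macrophage genes differed unevenly. Of 22 bright members 5 were higher (22.7%) and 0 lower, beside 10.3% and 7.01% of all bright genes. The list's median log2 ratio was 0.15. The summed intensity was 24160 without virus and 29300 with GFP. Mrc1, the mannose receptor, read 214 without virus, 1045 with GFP, 1140 with deltaNFAT, 58.1 in Fos+/+ spleen and 596 in bone marrow, a 4.88-fold difference. Msr1, a scavenger receptor for modified lipoproteins, read 66.0, 295, 335, 50.8 and 299 in that order. Cybb, the catalytic subunit of the phagocyte NADPH oxidase, read 79.3, 407, 352, 72.0 and 299. For these genes both spleen arrays without virus were low.

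Apoe, a lipid carrier that macrophages secrete, was the brightest higher gene of the list, at 2219 without virus, 4774 with GFP, 3999 with deltaNFAT, 958 in Fos+/+ spleen and 1964 in bone marrow. Its fold of 2.15 fell below the call under quantile normalization and with its probe sets averaged. The complement genes C1qc, C1qb and C1qa lay close together, at 3134, 2937 and 2448 without virus and 3457, 3297 and 2507 with GFP. Lysozyme, Lyz2, read 2861 and 2941, Cd68 read 1097 in both arrays, and the macrophage antigen gene Adgre1 read 643 and 641. The complement genes, Lyz2, Cd68 and Adgre1 were thus within 2-fold between the arrays, while Mrc1, Cybb and the brightest probe set of Msr1 were not. A second probe set of Msr1 read 124 without virus and 242 with GFP, a log2 ratio of 0.97 that was not called.

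Chemokine and cytokine genes had 4 of 14 bright members higher (28.6%) and 0 lower, beside 10.3% and 7.01% of all bright genes. The median log2 ratio of the list was 0.01, and 16 of 32 were under the floor in both arrays. Ccl2, which attracts monocytes, read 70.1 without virus, 193 with GFP, 693 with deltaNFAT, 51.3 in Fos+/+ spleen and 38.0 in bone marrow. Ccl7, an attractant of monocytes as well, read 31.1, 82.9, 360, 15.3 and 14.2 in that order. In both genes the virus arrays were the highest, deltaNFAT above GFP. Cxcl13, which attracts B cells, read 371 without virus, 971 with GFP, 917 with deltaNFAT, 230 in Fos+/+ spleen and 1155 in bone marrow, so that bone marrow was the highest. Of 15 genes of NF-kB and Toll-like receptor signalling 0 were called in either direction, and Nfkbia, the inhibitor of NF-kB, read 811 and 915.

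Among stress and early response genes, Egr1, a transcription factor induced by growth signals, read 171 without virus, 406 with GFP, 410 with deltaNFAT, 263 in Fos+/+ spleen and 90.4 in bone marrow, and lost its call with its probe sets averaged. Gadd45a, which is induced by DNA damage and stress, read 154, 327, 342, 74.1 and 108 in that order. Both virus arrays were again the highest. The immediate early and AP-1 list as a whole had 2 of 25 genes higher (8.0%) and 2 lower, close to the shares of all genes, and of 10 p53 targets 1 was higher. The heat shock list had 3 of 15 higher (20%, beside 10.3% of all bright genes), Hsp90aa1, Hspa4 and Hspa9, and 0 lower. Its brightest member Hspa8 read 1763 and 1778.

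In the list of genes for retrovirus entry and restriction 3 of 5 bright members were higher, Samhd1, Apobec1 and Slc20a1, beside 10.3% of all bright genes. Its median log2 ratio of 0.96 became 0.11 with probe sets averaged, where Samhd1 was not called. Apobec1, a cytidine deaminase, read 72.2 without virus, 191 with GFP, 209 with deltaNFAT, 83.6 in Fos+/+ spleen and 193 in bone marrow, so that bone marrow without virus was as high as GFP. Xpr1, a phosphate exporter that serves as receptor of some retroviruses, read 123 and 240, a log2 ratio of 0.96. Lpl, lipoprotein lipase, read 126 without virus, 570 with GFP, 783 with deltaNFAT, 470 in Fos+/+ spleen and 1207 in bone marrow. The array without virus was the lowest for it, and a second probe set of Lpl was higher with GFP too.

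**Figure D5:**
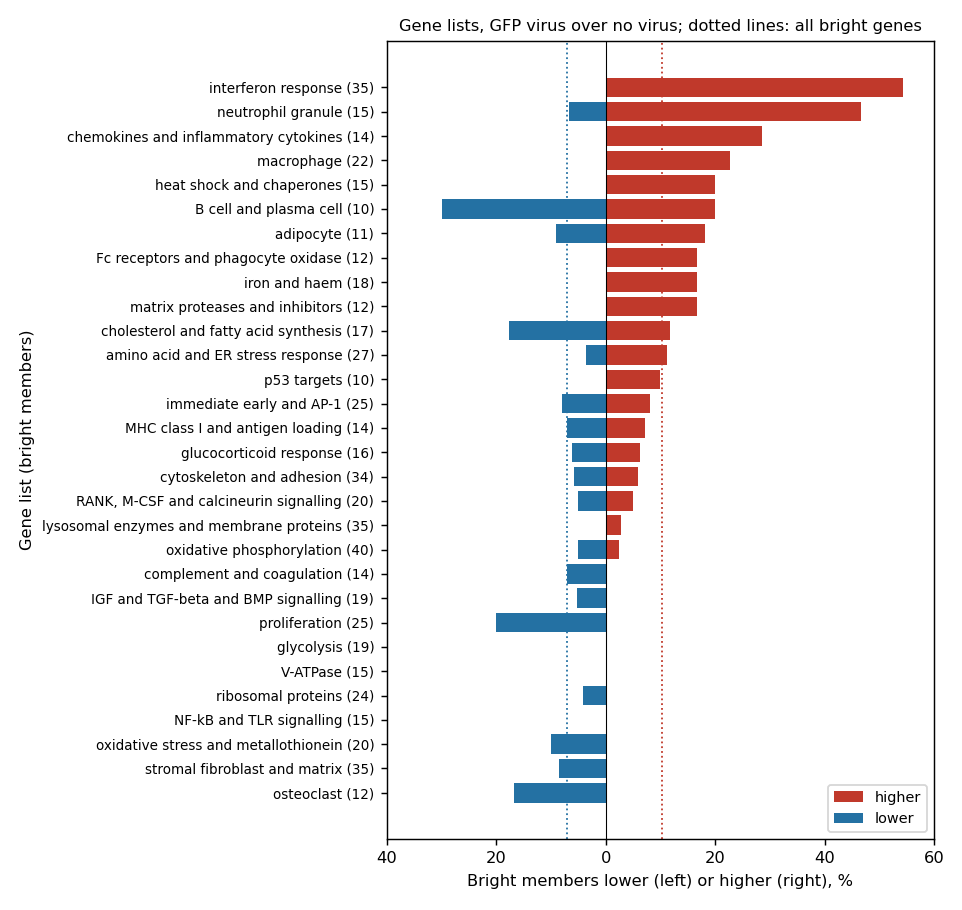
Share of each gene list's bright members that was higher (right, red) or lower (left, blue) with GFP virus, for lists with 10 or more bright members, whose number stands in parentheses; dotted lines mark the shares over all 5105 bright genes, 10.3% and 7.01%. Interferon response (54.3%) and neutrophil granule (46.7%) genes extend farthest to the right. Among the several lists with lower members and no higher ones, proliferation (20%) and osteoclast (16.7%) have the largest lower shares.

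Genes that were lower with GFP were fewer and dimmer. Among the bright ones was Col6a2, a collagen VI chain, at 438 without virus, 114 with GFP, 87.2 with deltaNFAT, 290 in Fos+/+ spleen and 164 in bone marrow, a 3.84-fold difference. Mt2, a metallothionein that binds zinc and copper, read 1907 without virus, 554 with GFP, 1585 with deltaNFAT, 2556 in Fos+/+ spleen and 2237 in bone marrow. The GFP array alone was low for it, while its neighbour in function Mt1 read 1749 without virus and 990 with GFP and was not called. Cyp24a1, the enzyme that inactivates vitamin D and a strong vitamin D target, read 818, 260, 354, 605 and 513 in the order no virus, GFP, deltaNFAT, Fos+/+ spleen and bone marrow. Its 3.15-fold difference was no longer called once its probe sets were averaged. The vitamin D receptor Vdr read 147 and 148.

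The stromal list had 0 of 35 bright members higher, beside 10.3% of all bright genes. It had 3 lower (8.57%), namely Col6a2, Fbln1 and Cnn1, a share close to the 7.01% of all bright genes. The list's median log2 ratio was -0.23. Its summed intensity was 37210 without virus and 34560 with GFP. Fbln1, which encodes the matrix protein fibulin, read 551 and 207, but on its unsuffixed probe set the log2 ratio was 0.20. Cnn1, a calponin of smooth muscle, read 386 and 192 and lost its call under quantile and loess normalization. The brightest members stayed close, with Bgn, a matrix proteoglycan, at 3496 and 3441, and the collagen gene Col1a2 at 2176 and 2366.

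Of the osteoclast list 0 of 12 bright members were higher and 2 lower (16.7%), beside 10.3% and 7.01% of all bright genes. The list's median log2 ratio was -0.19. Ckb, a creatine kinase abundant in osteoclasts, read 448 without virus, 203 with GFP, 524 with deltaNFAT, 2784 in Fos+/+ spleen and 1559 in bone marrow, and the GFP array was the lowest. Fosl1, an AP-1 subunit related to Fos, read 71.4 and 8.9. Acp5, whose acid phosphatase activity is stained to show osteoclasts, read 462 and 239, a log2 ratio of -0.95. Mmp9, a gelatinase, read 1047 and 1188, and Ctsk, the collagen-cleaving protease cathepsin K, read 61.3 and 79.3.

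Proliferation genes had 0 of 25 bright members higher and 5 lower (20%), beside 10.3% and 7.01% of all bright genes. The list's median log2 ratio was -0.36. Tk1, thymidine kinase, read 89.1 without virus, 36.2 with GFP, 19.1 with deltaNFAT, 101 in Fos+/+ spleen and 18.5 in bone marrow. Foxm1, a transcription factor of mitotic genes, read 123, 54.9, 103, 68.5 and 107 in that order, so that the deltaNFAT array was not low for it. Neither gene was called with probe sets averaged, nor Foxm1 on unsuffixed ones. The other 3 were Mcm2, Ccna2 and Cdc45, all below 80 in both arrays, while Pcna, the sliding clamp of DNA replication, read 353 and 366. Mcm5, also of this list, read 314 and 204 on its brightest probe set and was not called. A second probe set of Mcm5 went the other way, at 20.6 without virus and 51.9 with GFP, and was higher.

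Genes of T cells and NK cells were mostly dim. The T and NK cell list had 3 of 5 bright members lower, Zap70, Gzmb and Klrd1, beside 7.01% of all bright genes. In it 10 of 18 genes were under the floor in both arrays, with a summed intensity of 578 without virus and 324 with GFP. Zap70, a T cell kinase, read 159 without virus and -30.6 with GFP, on a probe set whose suffix marks relaxed design rules, and it lost its call with unsuffixed probe sets and with the mean of all. The dendritic cell and MHC class II list had 1 of 7 bright members higher, Cd86, and 3 lower, H2-DMa, Fscn1 and Itgax, beside 10.3% and 7.01% of all bright genes. Cd74, the invariant chain, read 97.5 and 92.9, and H2-Eb1, a class II chain, read 57.7 and 60.9. H2-DMa, which loads peptides on MHC class II, read 133 without virus, 1.4 with GFP, 96 with deltaNFAT, -25.4 in Fos+/+ spleen and -54.3 in bone marrow. Fscn1, an actin-bundling protein of dendritic and mesenchymal cells, read 1359, 629, 610, 1080 and 912 in that order. Cd86, a co-stimulatory ligand, was higher, at 60.3 without virus, 195 with GFP, 167 with deltaNFAT, 30.5 in Fos+/+ spleen and 101 in bone marrow, and a second probe set of it was higher too.

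Single genes with large folds downward were mostly dim on the GFP side. Stard10, a lipid transfer protein, read 227 without virus, -4.5 with GFP, -77.4 with deltaNFAT, 5.2 in Fos+/+ spleen and 1.8 in bone marrow. It was above the floor in the array without virus alone. Notch3, a Notch receptor of mural cells, read 203, 41.9, 50.4, 222 and 21.5 in that order, and Ramp2, a partner of the adrenomedullin receptor, read 188, 36.3, 51.7, 200 and 72.0. For Notch3 and Ramp2 both spleen arrays without virus were the high ones. Scarb1, a receptor for high-density lipoprotein, read 1086 without virus and between 356 and 535 in the other 4 arrays, the reverse of Lpl, and was not called after loess. Nr1h3, the sterol receptor LXR alpha, read 238 without virus, 80.8 with GFP, 70.2 with deltaNFAT, 320 in Fos+/+ spleen and 184 in bone marrow, and Ptx3, a secreted pattern recognition protein, read 215, 62.3, 66.1, 230 and 227. For both of these the virus arrays were the low ones.

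In 11 genes the GFP array alone was high. Foxl1, a forkhead transcription factor of mesenchymal cells, read 41.1 without virus, 187 with GFP, 34.1 with deltaNFAT, 58.2 in Fos+/+ spleen and 77.7 in bone marrow. Sla, an adaptor that damps antigen receptor signals, read -2.4, 123, 60.8, -11.0 and 37.0 in that order. Among the lists of housekeeping functions, 0 of 19 glycolysis genes and 0 of 15 vacuolar proton pump genes were called in either direction, 1 of 24 ribosomal protein genes was lower, and of 40 oxidative phosphorylation genes 1 was higher and 2 lower. Nearly all members of these lists thus differed by less than 2-fold. Of all 5105 bright genes, 4220 were in neither class, 10.3% were higher and 7.01% lower.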

How the data were processed

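The authors deposited 1 linear intensity per probe set and array, for 12488 probe sets on 5 arrays. No source used here gives the software that made these values, and the values include negative ones, so some signal had been subtracted. Of the probe sets 66 were controls, 10833 of the others had 1 gene symbol, 396 several and 1193 none, and those with 1 symbol were kept. Symbols came from the platform annotation, and a match by gene identifier to RefSeq GRCm38.p6 changed 0 of them. The deposited values were used without further scaling, raised to the floor of 20, and taken as log2. Ratios, counts and list medians were computed in Python 3.11.15 with pandas 2.3.3. The fold calculation was tested on simulated data. With 1 array a group there was no test, and the number of arrays limits the precision.

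The genes, lists and promoter motifs were chosen with earlier results of these data known. Genes named were the 15 largest folds each way with both arrays above the floor and the brighter at 80 or more, the 10 brightest called genes at the floor, called list members at 80 or more, up to 4 bright uncalled members of each list described, the 5 brightest of each pattern over the arrays, the 5 brightest higher genes matched by bone marrow, and Fos and Nfatc1. Others (the Cd3 genes, Ly6g, Irf7, Igtp, Ctsk, Cd68 and list members under 80, among them) were chosen after their values were seen. Alternatives were other scalings, floors, thresholds and ways of combining probe sets.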

Additional observations from a re-analysis of the deposited data

How the results depend on the processing

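The counts depended most on the floor. Higher genes numbered 251 at a floor of 60, 154 at a floor of 100 and 211 at a threshold of 3-fold, in place of 527. Lower genes numbered 115, 50 and 101 under the same settings and 201 where the brighter array had to reach 80, in place of 358. Called genes with bone marrow within 2-fold of GFP numbered 299 at a floor of 60, 177 at a floor of 100 and 417 with the minimum of 80, in place of 638. Higher interferon genes numbered 6, 5 and 10 under these 3 settings and 10 at 3-fold, in place of 19. Other scalings gave 513 (quantile), 527 (common trimmed mean) and 608 (loess) higher genes and 366, 355 and 294 lower ones. Higher genes were 59.5% of the called genes as deposited, 67.4% after loess and 75.5% at a floor of 100. The log2 ratio of Ighm became -0.37 and that of Fbln1 0.20 with unsuffixed probe sets. Under the other scalings, the mean of probe sets and unsuffixed probe sets, 68 of 82 named higher genes and 39 of 55 named lower genes kept their call. Under the changed floors and the minimum of 80 as well, 43 and 15 kept it, and the 3-fold threshold was applied to counts alone. No paired analysis was possible because the labels give no replicate numbers and each group had 1 array, and for the same reason no replicate could be left out.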
